A study of Mus musculus with 6 samples.

Results

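The 34 genes described here encode the contractile apparatus of smooth muscle, the cell type that makes up the myometrium, the muscular wall of the uterus. They were taken by gene symbol from the deposited tables, in which 34 of 34 were found among 20637 listed genes. Poly(A) RNA was sequenced from the whole uterus of female mice killed on postnatal day 21. The groups were Nat10 f/f (floxed Nat10, 3 libraries) and Nat10 d/d (Nat10 deleted, 3 libraries), and they are called f/f and d/d below. Nat10 encodes an acetyltransferase that modifies cytidines in RNA. The labels name no Cre driver, no deleted exon and no cell type in which the deletion takes place, and they do not say whether the animals were littermates or whether uteri were pooled. They also do not say that replicates were separate animals, so the p-values measure the spread between these libraries.

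Smooth muscle contracts when calcium enters through voltage-gated channels and binds calmodulin, which activates myosin light chain kinase. The kinase phosphorylates the regulatory light chain of smooth muscle myosin, and a phosphatase reverses this. Actin filaments are anchored in dense bodies and membrane plaques and are linked by desmin intermediate filaments. Many of these genes are controlled by serum response factor (SRF) with its coactivator myocardin, which act through a DNA element called the CArG box. In the uterus the same apparatus produces the contractions of labour.

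The SRF element is shown first because it is a sequence feature that links members of several roles. It is named here only as the CArG box. In its strict form, the core of 6 letters between the flanking C and G pairs holds A or T only, and in the relaxed form 1 core letter may differ. Both forms read the same way on either strand, so the search covers both strands, and every strict match is also a relaxed one. The 250 bases before the start of each gene were searched in RefSeq promoters (build GRCm38.p6, the assembly also called mm10). Promoters were found for 28 of the 34 members, and Actg2, Csrp2, Myh11, Myocd, Nexn and Tagln had no entry. A strict box was present in 4 of these 28 members (14.3%) and in 1.62% of the 27025 genes with a promoter. A strict or relaxed box was present in 9 of the 28 (32.1%) and in 9.78% of all genes. A match is a run of letters and was not shown here to be a binding site. The stretches below lie outside annotated exons, run 5′ to 3′ on the gene's strand and carry the boxes in capitals. They show a transcription factor gene, a myosin light chain gene, an adhesion gene and a calcium store gene that share the element.
Srf, strict boxes (chr17:46556190-46556269, minus strand): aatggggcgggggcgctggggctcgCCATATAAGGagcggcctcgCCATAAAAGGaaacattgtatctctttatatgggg
Myl9, strict box (chr2:156775278-156775337, plus strand): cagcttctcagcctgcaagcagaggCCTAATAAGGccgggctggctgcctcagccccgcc
Myl9, relaxed box (chr2:156775340-156775399, plus strand): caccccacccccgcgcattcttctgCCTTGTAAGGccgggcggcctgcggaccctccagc
Vcl, strict box (chr14:20929148-20929205, plus strand): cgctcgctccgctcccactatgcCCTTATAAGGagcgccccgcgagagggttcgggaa
Jph2, relaxed box (chr2:163398032-163398091, minus strand): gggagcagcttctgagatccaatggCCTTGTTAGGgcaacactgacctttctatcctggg
The Srf promoter held 2 strict boxes whose first bases lay 82 and 62 bases before the gene start. The Acta2 promoter held 2 relaxed boxes, CCCTATATGG and CCTTGTTTGG, with first bases 84 and 34 bases before the start. The other members with a box were Ldb3 (strict), Cacna1c, Pdlim3 and Synm (relaxed).

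The tissue carried markers of smooth muscle in all 6 libraries, but these markers are themselves members and give no separate check of the tissue. The summed value of the 6 defining markers (Myh11, Actg2, Cnn1, Des, Acta2 and Tagln) was 3960 to 4561 FPKM in f/f and 3691 to 4744 FPKM in d/d, where FPKM is a read abundance divided by transcript length and library depth. Nat10 itself had values of 13.2, 16.4 and 9.95 in f/f and 5.57, 5.23 and 5.53 in d/d, without overlap. The log2 difference of Nat10 was -1.11 (SE 0.17; limma adjusted p 0.669). Absolute depth is unknown. The lowest values gave relative depths that differed by at most 1.26 times between libraries. In whole tissue, fewer smooth muscle cells and less RNA per cell cannot be told apart.

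Differences between d/d and f/f in the contractile genes were small, and the groups overlapped for 31 of the 33 members tested. Of these 33 members, 0 passed an adjusted p of 0.05 in limma, and 0% of the 12640 genes tested did. At an unadjusted p under 0.05 limma also gave 0 members, while 4.98% of all genes were at that level. The smallest adjusted p of a member was 0.922. The largest differences were a log2 value of 0.24 (Nexn) in the positive direction and -0.24 (Synm) in the negative direction. The median log2 difference over the 33 members was -0.05, and that over all tested genes was 0.03. The mean was lower in d/d for 19 members (57.6%) and higher for 14, and it was lower for 43.4% of all tested genes. Each of the 4 scalings tried gave a member median between -0.07 and -0.10 with 23 members lower, while it moved the median over all genes to between -0.03 and 0.00. Without f/f replicate 2 the member median was 0.03 with 16 lower. With array quality weights, which give less weight to libraries that fit the group means poorly, limma again called 0 members while calling 2.5% of all genes. At an unadjusted p under 0.05 that fit gave 5 members (Cnn1, Actn1, Flna, Nexn and Csrp1) and 29.5% of all genes, and the member median was 0.06. Flna was also at that level in limma with scaling by upper quartile or total, where 631 and 626 of 12640 genes were. Without d/d replicate 2 Nexn was (with 1700 of 12531 genes), and without d/d replicate 3 Actg2 and Actn1 were (with 1397 of 12551 genes).

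The 95% intervals of the differences, which are not adjusted for the number of genes, give the precision for each gene. For 33 of 33 members the interval lay within 1 log2 unit (2-fold) in either direction, and 93.1% of all tested genes had such an interval. For 24 members (72.7%) it lay within 0.5 log2 units, or 1.41-fold, compared with 52.6% of all tested genes. That count was 13 without f/f replicate 1 and 18 to 26 when any other single library was left out. The SD within groups on the log2(FPKM + 1) scale had a median of 0.15 over members and 0.18 over all tested genes. The widest member interval was that of Actg2, from -0.55 to 0.72, and the narrowest was that of Cacna1c, from -0.16 to 0.30.

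**Figure D1:**
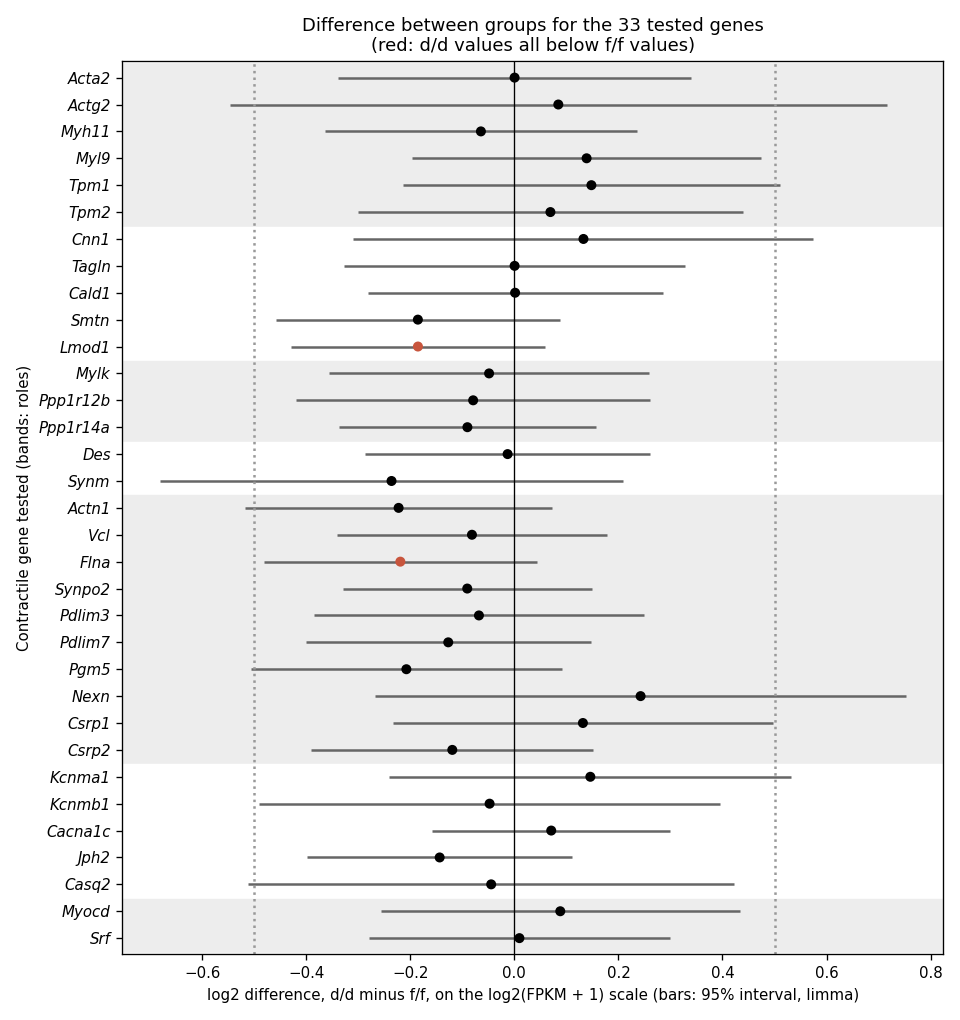
Log2 difference between d/d and f/f on the log2(FPKM + 1) scale (horizontal axis) for the 33 tested contractile genes, grouped by role in shaded bands, with 95% limma intervals as bars and dotted lines at -0.5 and 0.5. Every interval includes 0, and the 2 genes in red, Lmod1 and Flna, are those whose d/d values all lie below their f/f values.

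The values of d/d lay wholly below those of f/f for 2 members, Flna and Lmod1, or 6.06% of those tested, and 4.6% of all tested genes showed this. Of the members, 0 had d/d values wholly above those of f/f, and 6.12% of all genes did. Flna (ENSMUSG00000031328; chromosome X, 74223461 to 74249820, minus strand) encodes filamin A, which crosslinks actin and ties it to integrins. It had values of 439, 496 and 437 FPKM in f/f and 375, 398 and 404 FPKM in d/d. The highest d/d value was thus close to the lowest f/f value. The log2 difference was -0.22 (SE 0.11; 95% interval -0.48 to 0.04; limma adjusted p 0.922). It stayed between -0.28 and -0.21 under the 4 scalings and between -0.25 and -0.16 when any single library was left out. Lmod1 (ENSMUSG00000048096; chromosome 1, 135324807 to 135368065, plus strand) encodes leiomodin 1, a nucleator of actin filaments in smooth muscle. Its values were 38.9, 45.8 and 42.6 FPKM in f/f and 37.5, 37.4 and 36.6 FPKM in d/d. The d/d libraries were closely grouped, with an SD of 0.477 against 3.45 in f/f (n = 3 each). The log2 difference was -0.19 (SE 0.10; 95% interval -0.43 to 0.06; limma adjusted p 0.922). By exact permutation of the libraries, the two-sided p was 0.1 for each gene, the lowest possible with 3 libraries against 3.

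The filament proteins were among the most abundant transcripts of the tissue. Acta2 (ENSMUSG00000035783), which encodes smooth muscle alpha-actin, had values of 1718, 1941 and 1614 FPKM in f/f and 1849, 1905 and 1530 FPKM in d/d. The means were 1758 ± 167 and 1761 ± 202 (SD, n = 3 each), and the groups overlapped, with d/d replicate 3 below every control. For Acta2 the log2 difference was 0.00 (95% interval -0.34 to 0.34). Its level exceeded that of 99.7% of the tested genes. Myl9, the regulatory light chain that the kinase phosphorylates, had values of 1427, 1598 and 1259 FPKM in f/f and 1720, 1551 and 1436 FPKM in d/d. Only d/d replicate 1 lay above the controls. For Myl9 the log2 difference was 0.14 (SE 0.14; limma adjusted p 0.947), and it ranged from 0.05 without f/f replicate 3 to 0.22 without f/f replicate 2. Tpm1, a tropomyosin that lies along the actin filament, had values of 763, 817 and 644 FPKM in f/f and 907, 867 and 694 FPKM in d/d. In d/d replicates 1 and 2 Tpm1 lay above every control, and in replicate 3 it lay within them. The log2 difference of Tpm1 was 0.15 (SE 0.16), with 0.05 without f/f replicate 3 and 0.27 without d/d replicate 3. Tpm2 had means of 470 ± 67.5 FPKM in f/f and 492 ± 64.8 FPKM in d/d (SD, n = 3). Myh11, the smooth muscle myosin heavy chain, had means of 571 ± 33.7 FPKM and 548 ± 61.5 FPKM (SD, n = 3).

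Actg2 (ENSMUSG00000059430) encodes the gamma-actin of visceral smooth muscle. Its values were 353, 353 and 297 FPKM in f/f and 403, 486 and 225 FPKM in d/d. Libraries of d/d lay on both sides of the control range: replicates 1 and 2 lay above every control and replicate 3 lay below every control. Actg2 made up 17.0%, 15.4% and 15.5% of the summed smooth muscle actins Acta2 and Actg2 in f/f. In d/d it made up 17.9%, 20.3% and 12.8%.

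**Figure D2:**
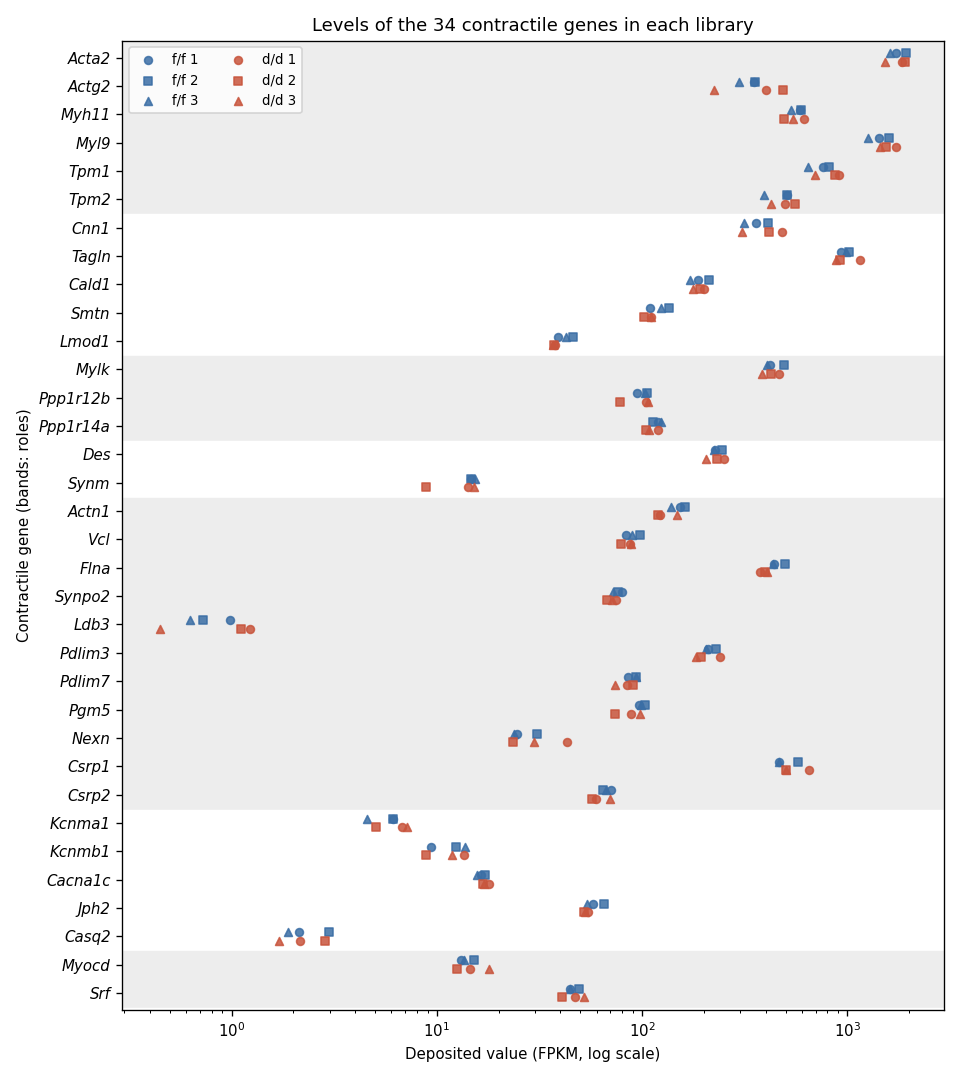
Deposited FPKM values (horizontal axis, log scale) of the 34 contractile genes in each library, with f/f in blue and d/d in red, symbols for replicates and bands for roles. Levels run from Ldb3, at 0.446 to 1.23, to Acta2, at 1530.0 to 1941, and the colours overlap in all rows but those of Flna and Lmod1.

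The thin filament regulators control access of myosin to actin or stabilise the filament. Tagln, which encodes the actin-binding protein transgelin, had values of 935, 1015 and 980 FPKM in f/f and 1151, 918 and 881 FPKM in d/d. One d/d library lay above the controls and the others lay below them, and the log2 difference was 0.00 (SE 0.14). Cnn1, the calponin that inhibits actomyosin, had values of 357, 412 and 313 FPKM in f/f and 478, 415 and 307 FPKM in d/d. The d/d values of Cnn1 again spanned the control range, with a log2 difference of 0.13 (SE 0.19). It was -0.01 without d/d replicate 1 and 0.31 without d/d replicate 3. Cald1 (caldesmon) had means of 190 ± 20.2 FPKM in f/f and 190 ± 11.8 FPKM in d/d (SD, n = 3). Smtn (smoothelin) had means of 123 ± 12.9 FPKM and 108 ± 4.84 FPKM (SD, n = 3), and the groups overlapped.

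Control of myosin light chain phosphorylation was represented by 3 members. Mylk, the light chain kinase, had values of 418, 493 and 407 FPKM in f/f and 465, 423 and 385 FPKM in d/d. Its log2 difference was -0.05 (95% interval -0.36 to 0.26), and it lay between -0.12 without d/d replicate 1 and 0.04 without f/f replicate 2. Ppp1r14a, an inhibitor of the myosin phosphatase, had values of 119, 112 and 123 FPKM in f/f and 119, 105 and 108 FPKM in d/d. For Ppp1r14a it was -0.09 (95% interval -0.34 to 0.16), with 2 d/d libraries below every control. It was -0.14 without d/d replicate 1 and -0.05 without d/d replicate 2. Ppp1r12b, a targeting subunit of the phosphatase, had means of 101 ± 5.85 FPKM in f/f and 96.4 ± 16.1 FPKM in d/d (SD, n = 3). Its lowest value was 77.9 FPKM in d/d replicate 2.

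The intermediate filament genes differed from each other in how they varied. Des, which encodes desmin, had values of 225, 244 and 224 FPKM in f/f and 250, 233 and 206 FPKM in d/d, a log2 difference of -0.01 (SE 0.12). Synm, which encodes synemin, a partner of desmin, had values of 14.6, 14.7 and 15.3 FPKM in f/f and 14.2, 8.84 and 15.2 FPKM in d/d. The low value was confined to d/d replicate 2 among these 6 libraries. The log2 difference of Synm was -0.24 (SE 0.19; limma adjusted p 0.934), and it was -0.01 without that library.

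Of the 10 tested dense body and adhesion genes, 8 had a lower mean in d/d and 2 a higher one, and the median log2 difference was -0.10. It was -0.13 to -0.16 under the 4 scalings and -0.06 without d/d replicate 2. None passed the limma threshold, and 0 had an unadjusted p under 0.05 with the values as deposited. Actn1, Flna, Nexn and Csrp1 were under 0.05 in 1 or more of the other fits given above. Actn1, the alpha-actinin that crosslinks actin in dense bodies, had values of 153, 161 and 139 FPKM in f/f and 122, 119 and 147 FPKM in d/d. In 2 of the 3 d/d libraries Actn1 lay below every control, while replicate 3 lay among the controls (log2 difference -0.22, SE 0.13; limma adjusted p 0.922). Csrp1, a LIM protein of the actin cytoskeleton, had values of 464, 577 and 465 FPKM in f/f and 650, 501 and 503 FPKM in d/d. Its log2 difference was 0.13 (SE 0.16), and only d/d replicate 1 lay above the controls. Without that library the difference of Csrp1 was 0.01. Nexn, which encodes the actin-binding protein nexilin, had values of 24.6, 30.8 and 23.7 FPKM in f/f and 43.1, 23.5 and 29.8 FPKM in d/d. Nexn had a log2 difference of 0.24 (SE 0.22; limma adjusted p 0.943), which was 0.02 without d/d replicate 1 and 0.44 without d/d replicate 2. With array quality weights the limma adjusted p of Nexn was 0.057. The mean in d/d was between 87.0% and 95.9% of that in f/f for Vcl, Synpo2, Pdlim3, Pdlim7, Pgm5 and Csrp2. These encode vinculin, synaptopodin 2, a pair of PDZ-LIM proteins, the structural protein aciculin and a LIM protein. Ldb3, a PDZ-LIM protein of striated muscle Z-discs, was near the lower limit of the data, at 0.627 to 0.978 FPKM in f/f and 0.446 to 1.23 FPKM in d/d. It did not reach a value of 1 in 3 libraries and was not tested.

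The membrane channels and calcium store genes were much less abundant than the filament genes. Cacna1c, the pore of the L-type calcium channel, had values of 16.4, 17.1 and 15.7 FPKM in f/f and 17.9, 16.9 and 17.0 FPKM in d/d. Both groups lay close together, and the log2 difference was 0.07 (95% interval -0.16 to 0.30). It was 0.01 after scaling to the same total and 0.04 without f/f replicate 3 or without d/d replicate 1. Jph2, which encodes junctophilin 2, a tether between the plasma membrane and the calcium store, had values of 57.7, 65.1 and 54.1 FPKM in f/f. In d/d the values of Jph2 were 54.8, 52.1 and 52.5 FPKM, so that 2 of 3 lay below every control (log2 difference -0.14, SE 0.11; -0.07 without f/f replicate 2). Kcnma1, the pore of the large-conductance calcium-activated potassium channel, had values of 6.12, 6.11 and 4.59 FPKM in f/f and 6.78, 5.06 and 7.14 FPKM in d/d. Kcnma1 had a log2 difference of 0.15 (SE 0.17), which was 0.03 without f/f replicate 3 and 0.28 without d/d replicate 2. Its smooth muscle subunit Kcnmb1 had means of 11.8 ± 2.21 FPKM in f/f and 11.4 ± 2.4 FPKM in d/d (SD, n = 3). Casq2, a calcium-binding protein of the store, had means of 2.34 ± 0.587 FPKM and 2.24 ± 0.586 FPKM (SD, n = 3).

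The transcription factors of the programme were measured at moderate levels. Myocd, which encodes myocardin, had values of 13.0, 15.1 and 13.6 FPKM in f/f and 14.5, 12.5 and 18.0 FPKM in d/d (log2 difference 0.09, SE 0.15). The difference of Myocd was 0.21 without d/d replicate 2 and -0.04 without d/d replicate 3. Srf had values of 44.7, 49.5 and 44.4 FPKM in f/f and 47.2, 40.7 and 52.2 FPKM in d/d (log2 difference 0.01, SE 0.12). For both genes d/d replicate 2 was the lowest of the 6 libraries and d/d replicate 3 the highest. That order was not shared by the abundant filament genes of the programme: Acta2, Actg2, Tpm1, Tpm2 and Myl9 were lowest among the d/d libraries in replicate 3. Myh11 differed from these filament genes, with d/d values of 612, 490 and 543 FPKM, so that it too was lowest of the 6 libraries in d/d replicate 2.

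**Figure D3:**
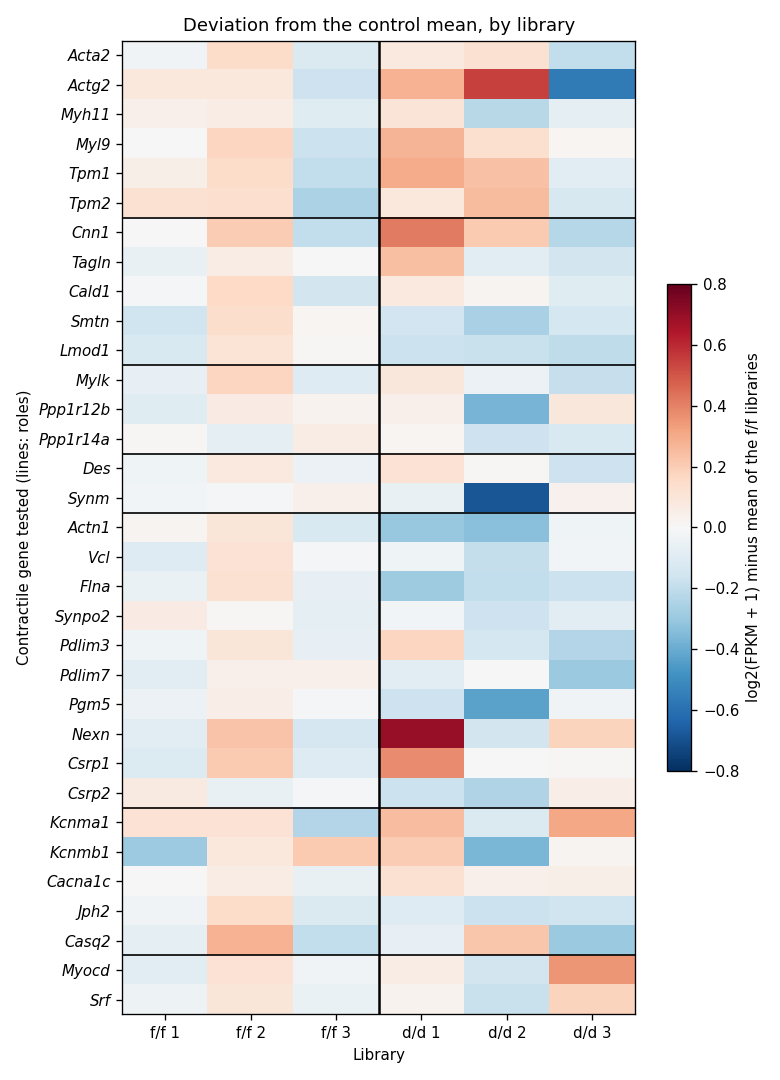
Each cell gives log2(FPKM + 1) of a tested contractile gene in 1 library (columns) minus the mean of the f/f libraries, from blue (lower) to red (higher), with lines between roles. The column of f/f replicate 2 is mostly red, and that of d/d replicate 2 is red for 5 of the 6 filament genes and blue for most dense body genes.

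Among f/f libraries, replicate 2 had the highest value for 26 of the 33 members (78.8%) and for 35.1% of all tested genes. The lowest f/f value was in replicate 3 for 20 members (60.6%) and for 38.4% of all tested genes. For 6 of the 6 filament genes replicate 2 was the highest and replicate 3 the lowest control. The median deviation of the members from the control mean was -0.03, 0.11 and -0.07 in f/f replicates 1, 2 and 3, on the log2(FPKM + 1) scale. Over all tested genes these medians were 0.01, 0.00 and -0.01.

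Among d/d libraries the median deviation of the members was 0.08, -0.15 and -0.09 in replicates 1, 2 and 3. Replicate 1 had the highest d/d value for 17 members (51.5%), and this was so for 24.0% of all tested genes. In d/d replicate 2, 19 members (57.6%) lay below every control, and 33.1% of all tested genes did. Filament and dense body genes had medians of opposite sign in d/d replicates 1 and 2. In d/d replicate 2 the median deviation was 0.18 for the 6 filament genes, of which 3 lay above every control (38.4% of all tested genes did), and -0.18 for the 10 dense body genes, of which 8 lay below every control. In d/d replicate 1 the medians were 0.19, with 4 filament genes above every control, and -0.06, with 5 dense body genes below every control. Of all tested genes, 34.2% lay above and 31.9% below every control in that library. In d/d replicate 3 they were -0.11 and -0.03. These are descriptions of single libraries and were not tested. The summed value of 6 proliferation markers was 130 FPKM in d/d replicate 2 and 6.45 to 49.5 FPKM in the other libraries. The sum of 8 endometrial stroma markers was 1218 FPKM in d/d replicate 2 and 1614 to 1738 FPKM elsewhere. Dcn, the most abundant of these, was at 646 FPKM in d/d replicate 2 and 1033 to 1197 FPKM elsewhere, while Lum was highest in that library, at 231 FPKM against 89.0 to 170 FPKM. None of these 14 markers was at 0 in all 6 libraries, and their part in the pattern was not tested. Without d/d replicate 2 the median difference over the members was -0.02, and 0 members passed an adjusted p of 0.05 in limma, as 0.0958% of all genes then did.

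Shares within gene families do not depend on the scaling of a library. The smooth muscle actins made up 56.4%, 57.6% and 55.1% of the summed actin values in f/f and 57.3%, 58.0% and 53.6% in d/d. The remainder was almost all cytoplasmic actin, with Actb at 714 to 842 FPKM and Actg1 at 761 to 856 FPKM over the 6 libraries. Myh11 made up 79.3%, 78.1% and 75.7% of the summed smooth muscle and non-muscle myosin heavy chains in f/f, and 83.2%, 77.6% and 77.0% in d/d. Myh9, Myh10 and Myh14 encode the non-muscle heavy chains, and Myh14 was at 5.44 to 8.41 FPKM over the 6 libraries. Myh9 had means of 110 ± 9.47 FPKM in f/f and 99.4 ± 16.4 FPKM in d/d (SD, n = 3). Myh10 had values of 45.5, 49.8 and 42.9 FPKM in f/f and 30.1, 42.6 and 36.9 FPKM in d/d, without overlap. Its log2 difference was -0.34 (SE 0.14; limma adjusted p 0.922), and it was -0.21 without d/d replicate 1. Tagln made up 90.4 ± 0.374% of the transgelins in f/f and 89.4 ± 3.75% in d/d (SD, n = 3). The share of Cnn1 among calponins was 45.9%, 45.8% and 44.5% in f/f and 51.7%, 50.5% and 40.3% in d/d. All 9 shares computed overlapped between groups.

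**Figure D4:**
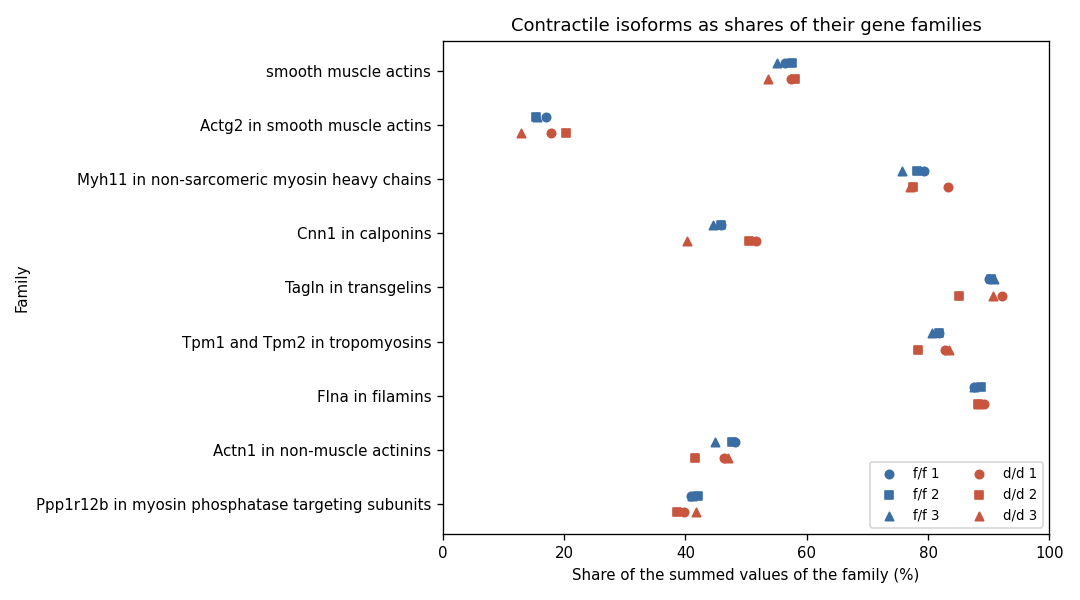
Share (horizontal axis, %) of the summed FPKM of each family held by the named contractile isoforms, 1 symbol per library, with f/f in blue and d/d in red. The f/f libraries lie close together in each row, and the d/d libraries lie on both sides of at least 1 control in every row.

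Other genes of smooth muscle contraction, 110 in number and outside the members, were examined in the same fit. Of these, 103 were listed and 96 tested, and 0 passed an adjusted p of 0.05 in limma in either direction. At an unadjusted p under 0.05 there were 2, both lower in d/d, and 2.3% of all genes were lower at that level. Their median log2 difference was -0.02. The groups did not overlap for 5, all lower in d/d, or 5.21% of those tested, beside the 4.6% given above for all genes. Flnc encodes filamin C, the muscle filamin, and had values of 36.7, 40.0 and 35.2 FPKM in f/f and 24.9, 31.1 and 29.8 FPKM in d/d. Flnc had a log2 difference of -0.38 (SE 0.12; limma adjusted p 0.922). Itga7, a laminin-binding integrin of muscle, had values of 11.1, 10.8 and 11.5 FPKM in f/f and 8.66, 10.2 and 8.33 FPKM in d/d (log2 difference -0.28, SE 0.11). The other three were Myh10, Tln1 (-0.25), which encodes talin, and Cacnb3 (-0.18, or -0.11 without d/d replicate 3), a calcium channel subunit.

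By subgroup, limma called 0 of 17 tested cytoplasmic and other-muscle paralogs and 0 of 17 receptors, gap junction and channel genes. It also called 0 of 32 adhesion, dystroglycan and caveola genes and 0 of 13 regulators of the SRF programme. Gja1, the gap junction protein connexin 43, had values of 24.3, 27.7 and 26.0 FPKM in f/f and 23.8, 37.2 and 30.0 FPKM in d/d. Oxtr, the oxytocin receptor, was at 1.89 to 2.76 FPKM in f/f and 0.909 to 3.25 FPKM in d/d. These 2 genes, which serve the onset and spread of labour contractions, were chosen after their values were seen.

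Markers of some other cell types are given beside these results. The 9 pericyte and vascular mural markers summed to 311 to 340.2 FPKM in f/f and 289 to 351 FPKM in d/d. The 8 endothelial markers summed to 297 to 333 FPKM in f/f and 269 to 295 FPKM in d/d, without overlap, and the 8 epithelial markers to 826 to 899 FPKM and 799 to 1083 FPKM. Single markers were also compared, from lists of 9 for mural cells, 4 for mesothelium and 8 each for endothelium, epithelium and stroma. Over all tested genes, 6.12% lay wholly above f/f in d/d and 4.6% wholly below. In these lists, markers whose groups did not overlap were Epcam, Cldn7 and Wnt7a of the epithelium, higher in d/d by log2 differences of 0.26, 0.49 and 0.66. Kdr, Flt1 and Tek of the endothelium (-0.47, -0.25 and -0.20) and Notch3 of mural cells (-0.37) were lower. Wnt5a and Mfap5 of the stroma (-0.45 and -0.47) and Msln and Lrrn4 of the mesothelium (-0.51 and -0.70) were also lower without overlap. None of these 11 markers passed the adjusted threshold in limma. Other markers of the same lists went the opposite way, with overlap. Rgs5, Higd1b and Kcnj8 of mural cells (0.18, 0.46 and 0.09), Egfl7 of the endothelium (0.11) and Wt1 of the mesothelium (0.04) were higher. Cldn3 and Krt19 of the epithelium (-0.15 and -0.01) were lower. The 4 mesothelial markers summed to 56.8 to 71.1 FPKM in f/f and 55.6 to 66.1 FPKM in d/d. None of the markers of these lists was at 0 in all 6 libraries. The 12 skeletal muscle markers summed to 89.2 to 109 FPKM in f/f and 90.7 to 125 FPKM in d/d, but 5 of them, Myh1, Myh2, Myh4, Pvalb and Atp2a1, were under 1 FPKM in all 6 libraries and 3 were at 0. Only Tnni2 of this list did not overlap between groups. Its values were 44.5, 35.9 and 45.1 FPKM in f/f and 47.3, 71.5 and 66.8 FPKM in d/d (log2 difference 0.54, SE 0.18; limma adjusted p 0.922). The part of these markers in the differences of Flna and Lmod1 was not tested.

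Some members share transcribed sequence with another gene, which can move reads between them. Of the 50-base windows of Tagln in GENCODE M21 transcripts, 58.4% also occur on the opposite strand in another gene, mainly Gm48529 and Pcsk7. For Vcl this share was 25.1%, through Ap3m1, and for Smtn 9.46%. On the same strand, only Nexn had over 1% of its windows in another gene (5.89%, Gm43185). The actins were distinct at this length, with 0.326% of Acta2 windows and 0% of Actg2 windows found elsewhere. Strandedness of the counting is not given in the sources used here, so whether reads of these partners were counted with Tagln, Vcl and Smtn is not known.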

How the data were processed

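Whole uteri were profiled by poly(A) RNA-seq in 6 libraries, grouped by sample title. Per the labels' protocols, TRIzol served for extraction and an Illumina TruSeq kit for the libraries. The deposited values are FPKM. The submitters' processing notes name HISAT2 2.2.1, Cufflinks 2.2.1 and mm10, and the unit was inferred from them and from the values. Annotation, gene filter and strandedness are not given in the sources used here.

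The 12640 genes reaching 1 FPKM in 3 or more libraries were compared as log2(FPKM + 1) with limma 3.58.1 (R 4.3.3; eBayes with trend, group as the only term), so that fold changes of low genes are understated. P-values are two-sided, adjusted by Benjamini-Hochberg over all tested genes, with a threshold of 0.05. Relative depth was estimated from the ratios of the lowest values times transcript length. No libraries held identical values. Python 3.11.15, pandas 2.3.3 and numpy 2.4.6 were used. The members, roles and lists were chosen with earlier results of these data known. Values in every library are given for the 2 most abundant members of each role, members whose groups do not overlap, and the 3 largest differences in each direction. Actg2, Gja1 and Oxtr were added after their values were seen. Of the pathway genes, those whose groups do not overlap are named, with Actb, Actg1, Myh9 and Myh10. The result of 1 subgroup of the pathway genes is not reported here.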

Additional observations from a re-analysis of the deposited data

How the results depend on the processing

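Alternatives were 4 scalings, no low-value filter, a filter of 1 FPKM in all 6 libraries, a pseudocount of 0.1, no trend, array quality weights, a replicate block, and omission of each library in turn. In all of them 0 members passed an adjusted p of 0.05 in limma. Array quality weights gave 316 called genes over the whole table (2.5%), 2 called pathway genes (Flnc, log2 difference -0.51, and Myh10, -0.53) and a median member difference of 0.058, with 5 members at an unadjusted p under 0.05 and a smallest member adjusted p of 0.057. Leaving out a library gave 0 to 12 called genes, 12 of them without d/d replicate 2. Over the same fits the median member difference ranged from -0.10 to 0.03, and 0 members and 0 pathway genes were called in each. The direction of all genes at an unadjusted p under 0.05 depended on scaling, with 339 higher and 291 lower as deposited and 196 and 430 after scaling to the same total. Scaling moved the median of all genes from 0.03 to between -0.03 and 0.00. The 4 scalings each turned the sign of 4 members (Acta2, Tagln, Cald1 and Srf) and of the pathway gene Actb, and scaling by upper quartile or total also turned that of Actg1; all these differences were near 0. When single libraries were left out, 3 to 7 members changed sign in each fit. Among them were Acta2, Tagln, Des and Srf, whose differences lay between -0.12 and 0.10. Cnn1 (-0.01 to 0.31), Mylk (-0.12 to 0.04) and Myocd (-0.04 to 0.21) also changed sign in 1 or more of these fits, as did the pathway genes Actb and Actg1. The labels do not say whether the replicate number pairs the samples. The values cannot decide this, because with so few libraries the deviations from a group mean depend on one another. Deviations of same-numbered libraries correlated at -0.34, -0.03 and 0.10, and with the replicate block 0 genes, 0 members and 0 pathway genes were called and the median member difference was -0.05. Count-based tests were not run, because the values are FPKM. Unknown depth limits what can be said of Ldb3 and Casq2.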
